A study of Mus musculus with 8 samples.

Results

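The chemokines and chemokine receptors measured in these mouse livers were the 53 genes whose name on the array was Ccl, Cxcl, Xcl, Cx3cl, Ccr, Cxcr, Xcr or Cx3cr followed by a number and at most 1 further letter. They were 53 of 27218 gene names and were read by 69 probes, and all 53 matched a RefSeq symbol. Liver RNA came from male mice of the inbred strain C57Bl/6J, at 14 weeks of age after a 4 h fast, and each of the 8 samples was read on 1 single-colour Agilent array. The 4 groups had 2 samples each and differed in what their dams ate and in what they themselves ate once weaned. For BD_HF, the mother's food was breeder diet throughout and the pup's a high fat diet, in which fat supplied 60% of the calories. For LF_HF the pup's food was the same, but from embryonic day 10.5 the mother ate a defined diet low in fat, at 12% of calories, with sufficient vitamin A. In LF_LF, mother and pup both ate this low fat diet. In VAD_VAD both ate a low fat diet that lacked vitamin A, by the diet labels and the design text, although the sample titles call the deficiency gestational and do not name the later diet.

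Chemokines are small secreted proteins that guide leukocytes along a gradient by binding G protein-coupled receptors on the moving cell. The spacing of their first cysteines sorts them into CC, CXC, XC and CX3C classes, and a receptor is named for the class it binds. In the liver, hepatocytes, sinusoidal endothelium, Kupffer cells (the resident macrophages), stellate cells and bile duct cells can all make them, while the receptors are carried mostly by leukocytes that pass through or settle there.

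A level here is the log2 processed signal of a gene's probe minus the 75th percentile of its array, so 0 is a fairly bright gene. Probes differ in brightness for the same amount of RNA, so levels of different genes were not set against each other. A difference is that of 2 group means on this log2 scale, given with its standard error (SE) and resting on 2 arrays a group unless stated. The test was limma across 17267 genes with Benjamini-Hochberg adjustment, and a gene is said to have risen or fallen only at an adjusted p under 0.05. The labels do not say that the samples of a group came from separate animals, so the spread behind each p-value is that between these samples and may be technical. LF_LF was the reference of 3 of the 4 comparisons, which therefore share its arrays.

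LF_HF replicate 1 stood apart before any chemokine was considered. On it 88.4% of gene spots were well above background, whereas the range elsewhere was 57.6% to 64.7%, and its outlier spots numbered 2707, with 46 to 316 elsewhere. The correlation between replicates was 0.919 in LF_HF and 0.977 to 0.992 in the rest. Each slide held 1 replicate of every group in the same positions, so position and diet cannot be told apart. All 11 hepatocyte markers were well above background on all 8 arrays. Of all genes called in LF_HF minus LF_LF, 24.8% were higher, and 61.6% after normexp background correction. In VAD_VAD minus LF_LF these shares were 16.5% and 29.1%.

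Of the 53 genes, 39 passed the filter on dim probes, which asked for a signal well above background on both arrays of some group, and 22 were above background on all 8 arrays. The 14 that did not pass were Ccl1, Ccl11, Ccl22, Ccl28, Ccr1, Ccr10, Ccr4, Ccr8, Cxcl15, Cxcl17, Cxcl2, Cxcl3, Cxcl5 and Cxcr1. Ccr1, a receptor of myeloid cells, and the neutrophil attractants Cxcl15 and Cxcl3 were above background on 0 arrays. Cxcl5 was above it on LF_LF replicate 2 alone, and Ccl28 on LF_HF replicate 1 and VAD_VAD replicate 1. The other 9 were above background on LF_HF replicate 1 alone. That array had 46 members above background, and the others had 27 to 39, with 38 and 39 in LF_LF. Ccl12, Ccl3, Ccr3, Cxcr5 and Xcl1 passed through LF_LF alone, so a signal in that group was part of how they were selected.

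**Figure D1:**
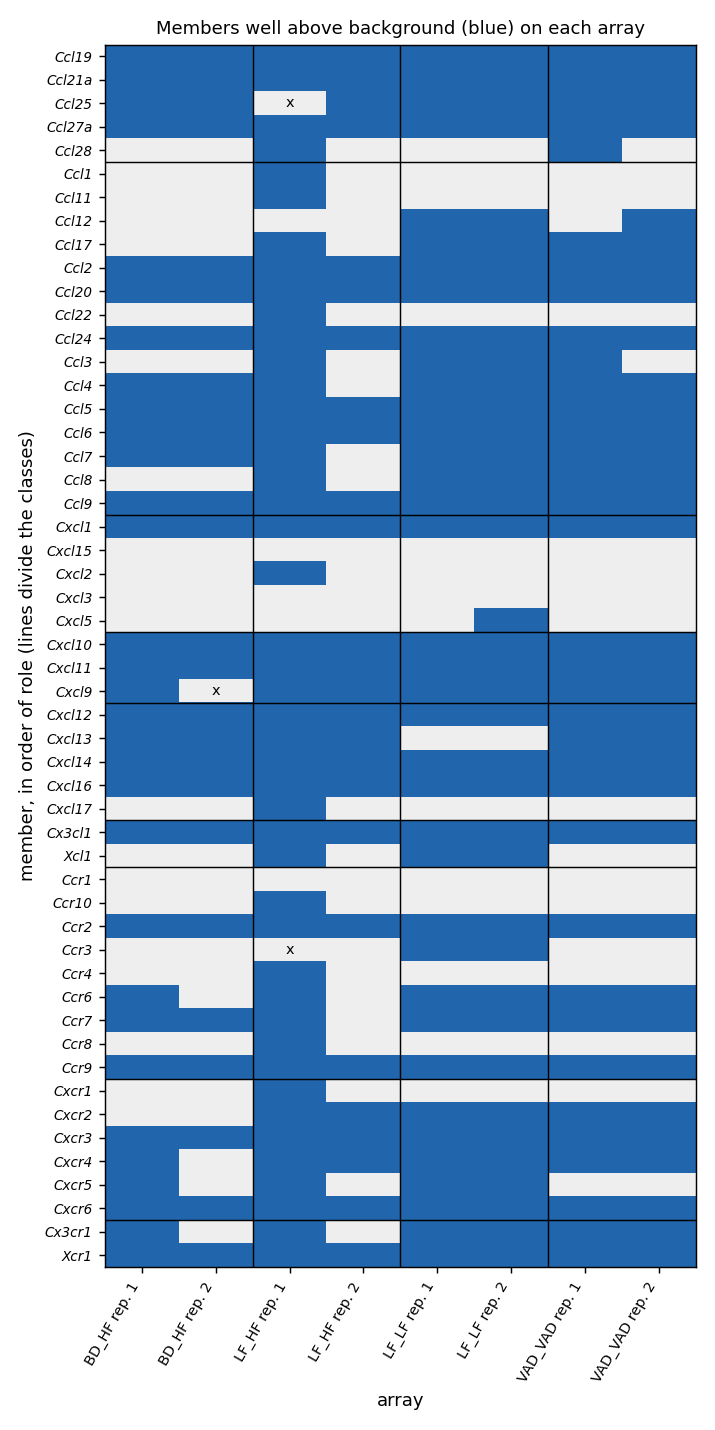
Each row is 1 of 52 members and each column 1 of the 8 arrays. Cells show whether the signal was well above background, and a cross marks an outlier spot that was left out; of all 53, LF_HF replicate 1 has 46 above background and the other arrays 27 to 39.

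The bases just before the RefSeq gene start are shown for Cxcl14, Ccl19, Cx3cr1 and Ccl12, which fell in at least 1 comparison, and for Cxcl10 and Cxcl1, which hold a match to the binding site of NF-kB, a factor that many inflammatory signals switch on. Each window is 200 bases, written 5′ to 3′ on the gene's strand, from RefSeq GRCm38.p6, a different build from that of the probe positions. Capitals mark matches on either strand to the kB consensus, to GAAANNGAAA, the core of the interferon-stimulated response element, or to TGANTCA, the AP-1 site.
Cxcl14, chr13:56296552-56296751, minus strand: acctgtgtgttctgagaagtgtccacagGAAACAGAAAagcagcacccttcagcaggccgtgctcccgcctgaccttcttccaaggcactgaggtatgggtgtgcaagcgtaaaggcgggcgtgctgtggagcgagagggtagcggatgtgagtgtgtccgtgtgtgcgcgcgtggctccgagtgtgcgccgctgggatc
Ccl19, chr4:42756366-42756565, minus strand: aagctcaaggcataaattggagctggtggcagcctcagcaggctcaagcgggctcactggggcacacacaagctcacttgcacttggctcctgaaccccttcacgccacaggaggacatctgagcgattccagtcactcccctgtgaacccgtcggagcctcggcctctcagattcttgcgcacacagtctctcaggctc
Cx3cr1, chr9:120068297-120068496, minus strand: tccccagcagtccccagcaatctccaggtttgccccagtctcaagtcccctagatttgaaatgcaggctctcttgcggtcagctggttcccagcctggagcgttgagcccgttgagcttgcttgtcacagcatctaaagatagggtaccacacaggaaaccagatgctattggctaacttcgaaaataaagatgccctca
Ccl12, chr11:82101645-82101844, plus strand: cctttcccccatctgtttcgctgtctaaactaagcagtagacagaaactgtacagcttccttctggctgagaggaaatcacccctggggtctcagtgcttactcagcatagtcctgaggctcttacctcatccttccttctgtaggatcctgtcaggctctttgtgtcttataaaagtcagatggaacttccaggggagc
Cxcl10, chr5:92348890-92349089, minus strand: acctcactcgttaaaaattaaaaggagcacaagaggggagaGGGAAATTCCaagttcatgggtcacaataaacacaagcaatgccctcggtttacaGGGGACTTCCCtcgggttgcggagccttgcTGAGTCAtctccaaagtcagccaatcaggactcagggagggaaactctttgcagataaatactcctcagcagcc
Cxcl1, chr5:90891045-90891244, plus strand: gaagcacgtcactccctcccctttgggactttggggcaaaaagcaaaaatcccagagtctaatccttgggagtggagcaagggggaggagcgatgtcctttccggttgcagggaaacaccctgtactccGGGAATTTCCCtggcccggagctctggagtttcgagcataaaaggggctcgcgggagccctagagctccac
Cxcl14 held a GAAANNGAAA match, Cxcl1 overlapping kB matches, and Cxcl10 kB matches and a TGANTCA match, while Ccl19, Cx3cr1 and Ccl12 held none of the 3 motifs in these windows. Of 39 members with an entry, 10 held a kB match, 1 a GAAANNGAAA match and 5 a TGANTCA match. The 10 were Ccl20, Cxcl3, Cxcl1, Cxcl2, Cxcl10, Ccr1, Ccr3, Ccl1, Ccl9 and Ccr6. Some members had more than 1 window, and counted by window the matches were 10, 1 and 5 of 43. Of 32851 promoter windows of the same length, 6.07%, 2.27% and 5.48% held these motifs. A match describes the letters and not a bound site. Ccl5, which also fell, is named only.

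Cxcl14, a CXC chemokine made by epithelia and other non-immune cells in the resting state, was the one member that fell in the vitamin A deficient group, and it fell in both high fat groups too. Its level was 0.92 and 0.93 in LF_LF, −3.26 and −3.10 in VAD_VAD, −0.79 and −0.59 in LF_HF and −1.52 and −1.23 in BD_HF. The 4 groups did not overlap, and they ran from LF_LF down through LF_HF and BD_HF to VAD_VAD. The difference from LF_LF was −4.11 in VAD_VAD (SE 0.301, limma adjusted p = 0.0153), or 17.2-fold lower. It was −2.30 in BD_HF (adjusted p = 0.0206, 4.92-fold lower) and −1.62 in LF_HF (adjusted p = 0.0417, 3.07-fold lower), the last not called once slide was a block (adjusted p = 0.0511). BD_HF minus LF_HF was −0.68 (adjusted p = 0.787), and VAD_VAD was not tested against the high fat groups. The probe lies on the minus strand of chromosome 13 at 56390078 to 56390137 in mm9, which the array files name as their build.

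**Figure D2:**
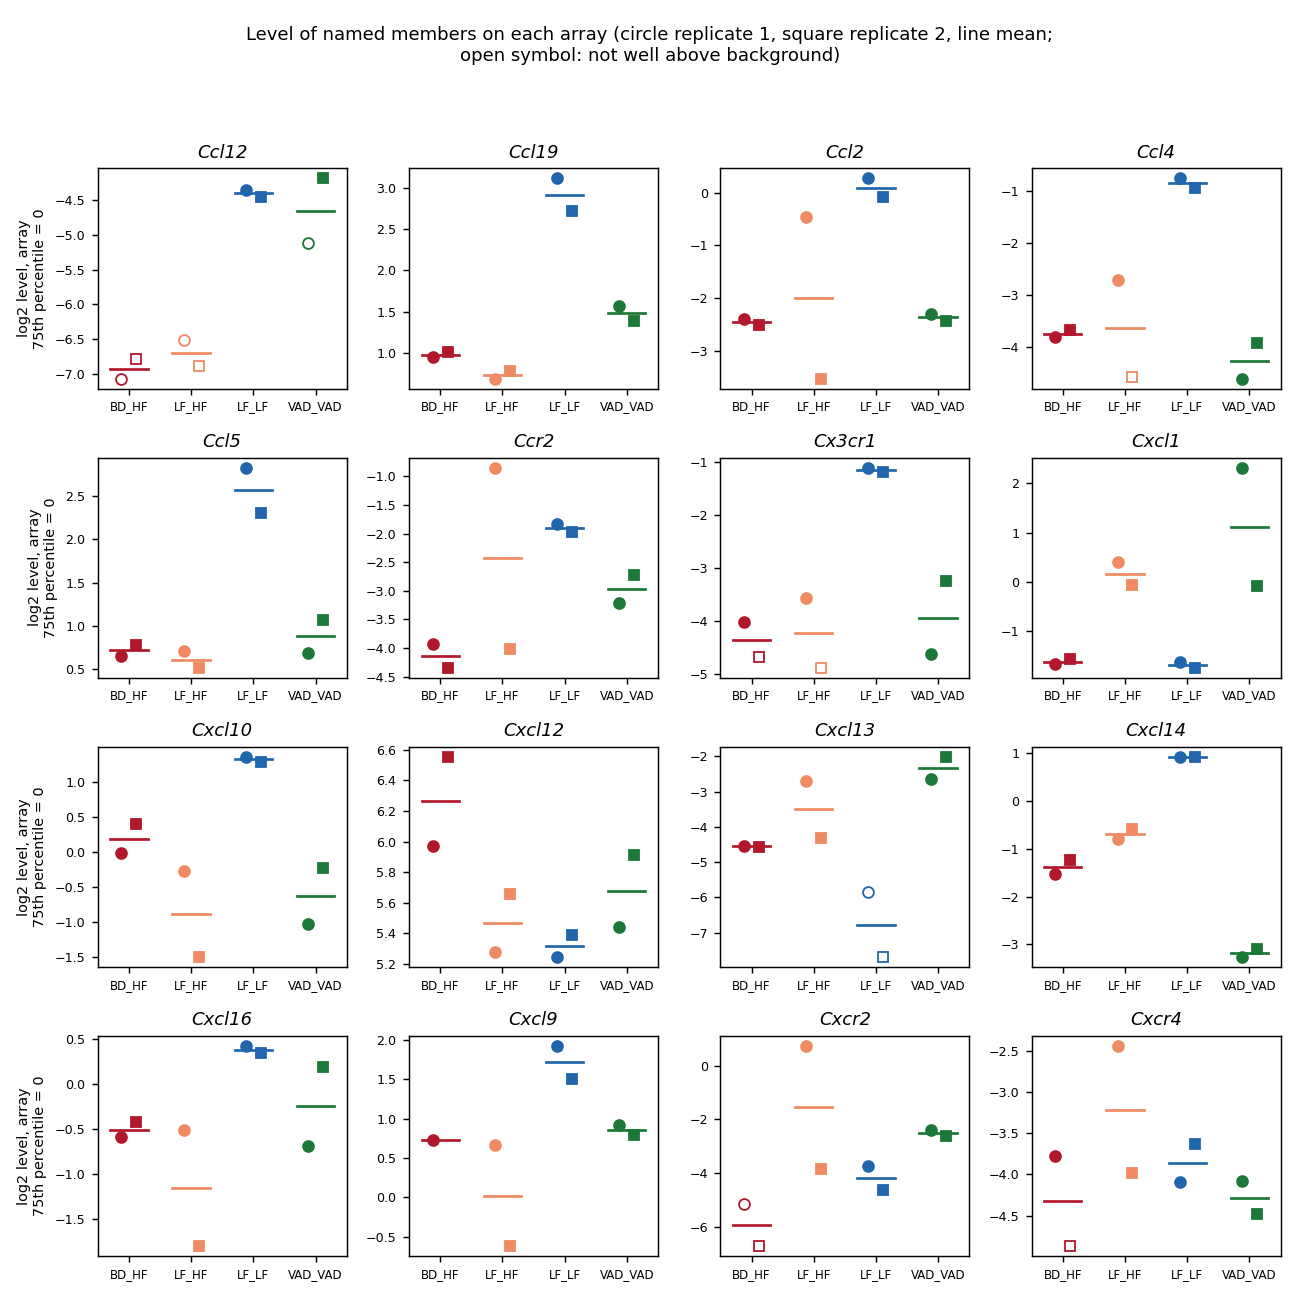
Each panel is 1 gene, with its log2 level relative to the array's 75th percentile on the vertical axis and the 4 diet groups along the horizontal axis. Circles are replicate 1, squares replicate 2, lines the group mean, and open symbols are signals not well above background; Cxcl14 lies at 0.92 and 0.93 on the LF_LF arrays and at −3.26 and −3.10 on the VAD_VAD arrays.

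Among the homeostatic CC chemokines, which direct the routine traffic of lymphocytes and dendritic cells, Ccl19 fell in both high fat groups. Ccl19 binds Ccr7 and draws naive T cells and dendritic cells into lymphoid tissue. Its level was 3.11 and 2.72 in LF_LF, 1.57 and 1.39 in VAD_VAD, 0.69 and 0.78 in LF_HF and 0.95 and 1.01 in BD_HF. LF_LF was the highest, VAD_VAD came next, and no pair of groups overlapped. Against LF_LF the difference was −2.18 in LF_HF (SE 0.305, adjusted p = 0.0197) and −1.94 in BD_HF (adjusted p = 0.0337), and in VAD_VAD it was −1.44 (adjusted p = 0.121). A second Ccl19 probe gave −2.25, −2.01 and −1.55 in that order. Ccl19, Ccl21a and Ccl27a have near-identical copies in the mouse genome, and a probe may read more than 1 of them.

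Ccl21a, the other ligand of Ccr7, had levels of 0.33 and 1.25 in LF_LF, −1.43 and −2.11 in VAD_VAD, 0.44 and −2.65 in LF_HF and −2.67 and −1.94 in BD_HF. LF_HF replicate 1 lay within the LF_LF range and LF_HF replicate 2 among the lowest arrays. BD_HF minus LF_LF was −3.09 (SE 0.920, adjusted p = 0.199) and VAD_VAD minus LF_LF −2.56 (adjusted p = 0.384). Ccr7 itself differed by −1.80 and −1.56 in those comparisons (adjusted p = 0.251 and 0.422). Ccl25, which draws Ccr9-bearing cells, and Ccl27a, a ligand of Ccr10, differed from LF_LF by −0.06 to 0.65. A second Ccl25 probe gave 1.15 in LF_HF minus LF_LF, where the first gave −0.06 with 1 LF_HF array left out as an outlier.

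Ccl5, an inflammatory CC chemokine of T cells, natural killer cells and macrophages, fell in both high fat groups. Its level was 2.83 and 2.30 in LF_LF, 0.68 and 1.07 in VAD_VAD, 0.71 and 0.52 in LF_HF and 0.65 and 0.79 in BD_HF. The LF_LF arrays lay above all others, and the other 3 groups overlapped. The difference from LF_LF was −1.95 in LF_HF (SE 0.336, adjusted p = 0.0335, 3.87-fold lower) and −1.85 in BD_HF (adjusted p = 0.0495). With slide as a block the second was lost (adjusted p = 0.0659). VAD_VAD minus LF_LF was −1.69 (adjusted p = 0.0994), and a second Ccl5 probe gave −1.64, −1.93 and −1.78 in the same order.

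Ccl4 and Ccl3, macrophage inflammatory proteins, did not pass. Ccl4 had levels of −0.75 and −0.93 in LF_LF, −4.61 and −3.93 in VAD_VAD, −2.72 and −4.58 in LF_HF and −3.82 and −3.68 in BD_HF. Every LF_LF array was above every other array. Its differences from LF_LF were −2.91, −2.80 and −3.43 in BD_HF, LF_HF and VAD_VAD (SE 0.590, adjusted p = 0.0713, 0.0599 and 0.0640). Ccl3 was not well above background in BD_HF, where it was at least 4.71-fold lower than in LF_LF (adjusted p = 0.264).

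The ligands of Ccr2, which draw monocytes from the blood, include Ccl2, Ccl7 and Ccl12. Ccl2 had levels of 0.27 and −0.08 in LF_LF, −2.30 and −2.43 in VAD_VAD, −0.46 and −3.53 in LF_HF and −2.39 and −2.52 in BD_HF. The LF_LF arrays were the highest, and the LF_HF arrays lay on either side of BD_HF and VAD_VAD. Its differences from LF_LF were −2.55, −2.09 and −2.46 in BD_HF, LF_HF and VAD_VAD (SE 0.851, adjusted p = 0.252, 0.280 and 0.359). Ccl7 differed by −1.58, 0.29 and −0.71, with LF_HF replicate 1 at 0.23 and replicate 2 at −4.65, below background. A second Ccl7 probe, above background on 4 arrays, gave −4.21, −1.59 and −1.81, the second of opposite sign.

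Ccl12 was called lower in both high fat groups, in signals close to background, and it was tested only because LF_LF passed the filter, so the call is partly fixed by that filter. Its levels were −4.35 and −4.46 in LF_LF, −5.12 and −4.19 in VAD_VAD, −6.51 and −6.88 in LF_HF and −7.07 and −6.79 in BD_HF. It was above background on both LF_LF arrays and on VAD_VAD replicate 2, and on 0 of the 4 high fat arrays. Differences of −2.29 in LF_HF (SE 0.391, adjusted p = 0.0335) and −2.52 in BD_HF (adjusted p = 0.0321) therefore stand for at least 1.20-fold and at least 1.52-fold lower signal, each bound being the dimmest signal above background on the arrays concerned. After normexp background correction they were −0.14 and 0.02 (adjusted p = 0.818 and 0.978).

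Ccr2, the receptor of inflammatory monocytes, had levels of −1.82 and −1.98 in LF_LF, −3.21 and −2.73 in VAD_VAD, −0.85 and −4.02 in LF_HF and −3.93 and −4.35 in BD_HF. LF_HF replicate 1 was the highest of all and replicate 2 among the lowest. BD_HF minus LF_LF was −2.24 (SE 0.888, adjusted p = 0.352). In LF_HF minus LF_LF it was −0.53, and a second probe, above background on 2 arrays, gave 1.54. Fewer cells of a type and less RNA per cell cannot be told apart in whole liver, for this receptor or any other member.

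The remaining inflammatory CC ligands included Ccl9 and Ccl6, products of mouse macrophages. Ccl9 differed from LF_LF by −1.11 in BD_HF and −1.13 in LF_HF (adjusted p = 0.264 and 0.198), and Ccl6 by −0.57 and −0.90. Ccl20, a ligand of Ccr6, and Ccl24, a ligand of Ccr3, lay within −0.70 to 0.68 of LF_LF, and a second Ccl24 probe gave 0.84 in LF_HF and 0.89 in BD_HF. Of the 12 inflammatory CC ligands tested, 2 fell in LF_HF and 2 in BD_HF (Ccl12 and Ccl5 in each), and 0 rose. Of all genes, 1.88% fell in LF_HF and 1.06% in BD_HF, and without the members that passed through LF_LF alone 1 of 10 fell in each. The median difference of all 12 was −1.29 in LF_HF, −1.71 in BD_HF and −0.70 in VAD_VAD. Of the 10 it was −1.02, −1.43 and −0.70.

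By position, 11 of these genes had probes in 2 blocks of chromosome 11 in mm9, from 81850650 to 81990395 (Ccl2, Ccl7, Ccl11, Ccl12, Ccl8 and Ccl1) and from 83339296 to 83478111 (Ccl5, Ccl9, Ccl6, Ccl3 and Ccl4). In the second block all 5 were tested and all 5 differences from LF_LF were negative in each comparison, with medians of −1.95 in LF_HF, −1.69 in VAD_VAD and −1.85 in BD_HF. In the first block 4 of 6 were tested, with medians of −1.27, −0.48 and −2.05. Over all genes tested the medians were −0.02, 0.09 and 0.11. Ccl3 in the second block and Ccl12 in the first passed the filter through LF_LF alone, which partly fixes their lower values elsewhere. Neighbours were read from the same RNA and are not independent observations.

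Of the CX3C pair, Cx3cr1 fell in LF_HF. Cx3cr1, the fractalkine receptor of monocytes and tissue macrophages, had levels of −1.11 and −1.19 in LF_LF, −4.63 and −3.25 in VAD_VAD, −3.56 and −4.88 in LF_HF and −4.02 and −4.69 in BD_HF. Every LF_LF array was above every other array, and replicate 2 was below background in both LF_HF and BD_HF. On the values as measured, LF_HF minus LF_LF was −3.07 (SE 0.597, adjusted p = 0.0472, 8.40-fold lower), a call lost with slide as a block (adjusted p = 0.0609). The differences in BD_HF and VAD_VAD were −3.20 and −2.79 (adjusted p = 0.0539 and 0.126). A second Cx3cr1 probe, above background on 3 arrays, gave 1.79 in LF_HF minus LF_LF, the opposite sign.

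Cx3cl1, the membrane-tethered ligand of Cx3cr1, was singled out after its values were seen. Its levels were 0.96 and 0.82 in LF_LF, −1.99 and −1.90 in VAD_VAD, −0.23 and −2.92 in LF_HF and −2.40 and −2.20 in BD_HF. Again the LF_LF arrays were above all others, with differences of −3.19, −2.47 and −2.84 in BD_HF, LF_HF and VAD_VAD (SE 0.756, adjusted p = 0.116, 0.166 and 0.223). A second Cx3cl1 probe, above background on 1 array, gave 0.14, 3.68 and −0.01 in the same order, with the opposite sign in BD_HF and LF_HF. Xcl1, made by activated T and natural killer cells, was above background on 3 arrays. Its receptor Xcr1, a mark of cross-presenting dendritic cells, differed from LF_LF by 0.53 to 0.60. A second Xcr1 probe, above background on 1 array, gave −0.21, 1.99 and −0.81 in BD_HF, LF_HF and VAD_VAD.

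Cxcl9, Cxcl10 and Cxcl11 are induced by interferon and bind Cxcr3 on activated T cells. Cxcl10 had levels of 1.35 and 1.28 in LF_LF, −1.02 and −0.23 in VAD_VAD, −0.28 and −1.49 in LF_HF and −0.02 and 0.39 in BD_HF. The LF_LF arrays were the highest and the BD_HF arrays came next. Its differences from LF_LF were −1.13, −2.20 and −1.94 in BD_HF, LF_HF and VAD_VAD (SE 0.483, adjusted p = 0.392, 0.0682 and 0.192). Cxcl9 was at 1.93 and 1.51 in LF_LF, 0.92 and 0.80 in VAD_VAD, 0.66 and −0.62 in LF_HF, and 0.72 on the BD_HF array whose spot was not an outlier. LF_HF minus LF_LF was −1.70 (SE 0.485, adjusted p = 0.160). Cxcl11 differed by 0.98 in BD_HF and −0.58 in VAD_VAD, and Cxcr3 by −1.04 to −0.70 across the 3 comparisons. None of these 4 genes passed.

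Fewer members were higher outside LF_LF, and 0 passed. Cxcl13, which draws B cells through Cxcr5, had levels of −5.85 and −7.69 in LF_LF, −2.64 and −2.01 in VAD_VAD, −2.68 and −4.32 in LF_HF and −4.55 and −4.56 in BD_HF. It was below background on both LF_LF arrays and above it on the other 6. It was at least 9.34-fold higher in VAD_VAD (adjusted p = 0.0525), at least 4.13-fold in LF_HF (adjusted p = 0.0682) and at least 1.99-fold in BD_HF (adjusted p = 0.235) than in LF_LF.

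Cxcl1, a neutrophil attractant, had levels of −1.63 and −1.74 in LF_LF, 2.32 and −0.08 in VAD_VAD, 0.40 and −0.06 in LF_HF and −1.66 and −1.57 in BD_HF. The BD_HF and LF_LF arrays lay together at the bottom, and VAD_VAD replicate 1 was the highest. Its differences from LF_LF were 1.85 in LF_HF and 2.80 in VAD_VAD (SE 0.696, adjusted p = 0.244 and 0.192). Its receptor Cxcr2, carried by neutrophils, had levels of −3.74 and −4.63 in LF_LF, −2.38 and −2.61 in VAD_VAD, 0.73 and −3.84 in LF_HF and −5.16 and −6.71 in BD_HF. LF_HF replicate 1 was far above all other arrays, and both BD_HF arrays were below background. A second Cxcr2 probe, above background on 2 arrays, gave −0.09 in LF_HF minus LF_LF, where the first gave 2.63. The mean level of 11 neutrophil markers was −3.45 and −3.58 in LF_LF, −2.24 and −1.72 in VAD_VAD, −1.87 and −3.75 in LF_HF and −4.75 and −4.51 in BD_HF, with 5 to 10 of them above background on an array, and their part in these values was not tested.

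Cxcl12, the stromal ligand of Cxcr4, had levels of 5.25 and 5.39 in LF_LF, 5.44 and 5.91 in VAD_VAD, 5.28 and 5.65 in LF_HF and 5.97 and 6.55 in BD_HF. The BD_HF arrays were the highest. BD_HF minus LF_LF was 0.95 (SE 0.359, adjusted p = 0.326), and a second probe gave 0.36. Cxcr4 had levels of −4.09 and −3.63 in LF_LF, −4.08 and −4.49 in VAD_VAD, −2.44 and −3.99 in LF_HF and −3.78 and −4.87 in BD_HF, and the groups overlapped.

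Cxcl16, a membrane-bound ligand of Cxcr6, had levels of 0.42 and 0.34 in LF_LF, −0.69 and 0.19 in VAD_VAD, −0.51 and −1.80 in LF_HF and −0.59 and −0.42 in BD_HF. LF_LF was the highest group, with differences of −0.63 in VAD_VAD and −1.54 in LF_HF (SE 0.497, adjusted p = 0.727 and 0.185). Cxcr6 differed from LF_LF by −0.28 to 0.04.

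Counted over the whole set, each member that passed was lower. In LF_HF minus LF_LF, 5 of 39 fell (Ccl12, Ccl19, Ccl5, Cx3cr1 and Cxcl14) and 0 rose, against 1.88% of all genes that fell and 0.62% that rose. In BD_HF minus LF_LF, where the diets of dam and offspring both differ, 4 fell (Ccl12, Ccl19, Ccl5 and Cxcl14) and 0 rose, against 1.06% and 0.458%. In VAD_VAD minus LF_LF, 1 fell (Cxcl14) and 0 rose, against 0.527% and 0.104%. In BD_HF minus LF_HF, which varies the maternal diet under high fat, 0 fell and 0 rose, against 0.00579% and 0% of all genes. Without adjustment limma gave 14, 15, 12 and 3 of 39 members under 0.05 in these comparisons, or 35.9%, 38.5%, 30.8% and 7.69%, beside 16.6%, 12.8%, 10.3% and 5.39% of all genes. The 39 include 5 members, Ccl12 among them, that passed the filter through LF_LF alone, where a signal was needed. Without them, an alternative added after the data were seen, 4, 3, 1 and 0 of 34 fell and 0 rose.

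The median member differed by −0.53 in LF_HF minus LF_LF, −1.04 in BD_HF minus LF_LF, −0.69 in VAD_VAD minus LF_LF and −0.19 in BD_HF minus LF_HF. Without the members that passed through LF_LF alone, the medians of the other 34 were −0.54, −1.02, −0.66 and −0.12. The medians of all genes tested were −0.02, 0.11, 0.09 and 0.17. With quantile scaling the LF_HF minus LF_LF medians were −1.27 for members and −0.22 for all genes. With quantile scaling the BD_HF minus LF_HF median of the members was 0.42, of the opposite sign, and that of all genes was 0.20. The LF_HF arrays moved these medians widely. Without replicate 1, LF_HF minus LF_LF was −1.71 for members and 0.12 for all genes. Without replicate 2 it was −0.04 and −0.20, so the members then lay above all genes. BD_HF minus LF_HF was 0.53 for members and 0.01 for all genes without replicate 1, and −0.79 and 0.37 without replicate 2. After normexp correction, which compresses dim signals, the first 3 member medians were −0.02, −0.23 and −0.19, beside 0.06, 0.15 and 0.14 for all genes. The arrays of the 2 groups did not overlap, with the first lower, for 16 of 37 members in LF_HF minus LF_LF (21.3% of all genes), 24 of 38 in BD_HF minus LF_LF (25.9%), 20 of 39 in VAD_VAD minus LF_LF (25.5%) and 6 of 36 in BD_HF minus LF_HF (9.54%). With the first group higher the counts were 4 (20.9%), 7 (34.2%), 7 (32.5%) and 4 (17.4%). Members that passed the filter through LF_LF alone are among those lower than LF_LF, which the filter partly fixes. They were Ccl12 and Ccl3 in LF_HF, Ccl12, Ccl3 and Xcl1 in BD_HF, and Ccl3, Ccr3, Cxcr5 and Xcl1 in VAD_VAD.

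**Figure D3:**
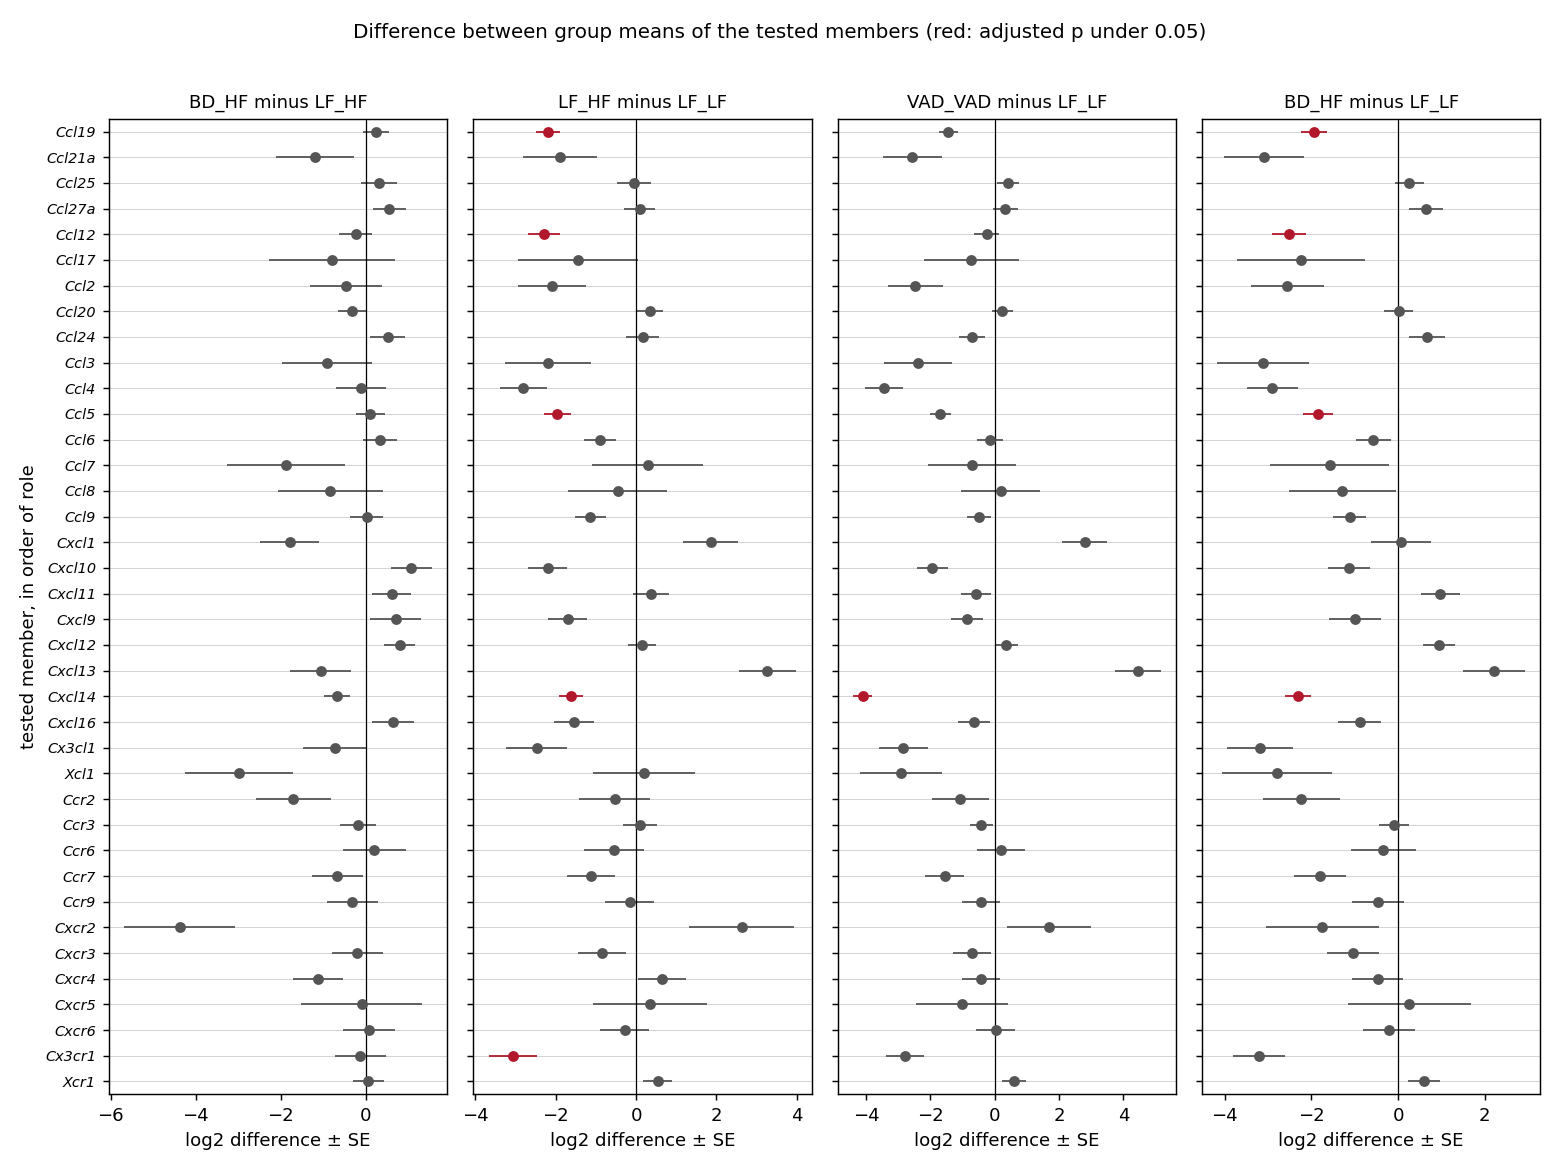
Each panel is 1 comparison, with the log2 difference between group means on the horizontal axis and 38 of the 39 tested members on the vertical axis. Points are differences with bars of 1 SE, and members at an adjusted p under 0.05 are marked: 0 in BD_HF minus LF_HF, 5 in LF_HF minus LF_LF, 1 in VAD_VAD minus LF_LF and 4 in BD_HF minus LF_LF, all below 0.

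Between the high fat groups, the members with an unadjusted p under 0.05 were Cxcr2, Xcl1 and Cxcl1 (adjusted p = 0.787 for each). Cxcl1 differed by −1.79. Cxcr2 and Xcl1 were below background on both BD_HF arrays. Cxcr2 was lower by at least 10.9-fold, in an LF_HF mean that includes the array that stood apart. The measured Cxcr2 difference was −4.38, and −2.09 without that array. Xcl1 was above background in LF_HF on that array alone, at −0.78, with replicate 2 at −5.01, so no bound is given for it. Without LF_HF replicate 2, so that LF_HF rests on the array that stood apart, 13 of 37 members were called lower in BD_HF, beside 14.8% of all genes. Without LF_HF replicate 1, 0 were called.

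The calls against LF_LF moved when arrays were left out. Without either LF_LF array or either BD_HF array, 0 members were called in any of the 3 comparisons with LF_LF. The Cxcl14 difference in VAD_VAD was then −4.11 and −4.10 without LF_LF replicate 1 and 2 (adjusted p = 0.201 and 0.139), and −4.02 and −4.19 without VAD_VAD replicate 1 and 2 (adjusted p = 0.115 and 0.0850). Without LF_HF replicate 1, 17 of 39 members were called lower in LF_HF minus LF_LF (8.70% of all genes) and 15 in BD_HF minus LF_LF (6.31%). In VAD_VAD minus LF_LF 10 were lower (3.96%) and 1, Cxcl13, higher (1.34%). Without LF_HF replicate 2, 9 of 37 were lower (9.61% of all genes) and 5 higher (16.1%) in LF_HF minus LF_LF, with the other counts as before. Without either VAD_VAD array, Ccl12 alone was called in LF_HF minus LF_LF, and Ccl12 and Cxcl14 in BD_HF minus LF_LF. An array outside a comparison acts on it here through the shared estimate of the spread.

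The wider chemokine system was read from lists of genes. Of 13 other genes linked to the chemokine system, Mif, Dpp4 and Cd74 among them, 2 fell and 0 rose in LF_HF minus LF_LF. In VAD_VAD or BD_HF minus LF_LF, 0 passed. Pf4, the platelet chemokine, differed by −1.93 (adjusted p = 0.0296) and Cd74, a receptor of the cytokine Mif, by −1.98 (adjusted p = 0.0373, and 0.0538 in the blocked fit). The list medians were −0.38, 0.05 and −0.02. Of 36 genes that carry the receptor signal inside the cell, such as G protein subunits, Rac proteins, arrestins and leukocyte integrins, 0 passed, with medians of −0.63 in LF_HF, −0.39 in VAD_VAD and −0.54 in BD_HF. Of 31 tested genes of the signalling that controls chemokine transcription, 0 passed. The list holds activators such as Tnf, Il1b and the NF-kB subunits but also restraints such as Nfkbia, Tnfaip3 and Il1rn, and its medians, which mix opposing roles, were −0.27, −0.38 and −0.36.

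Markers of monocytes and recruited macrophages, of stellate cells and fibroblasts and of cholangiocytes had negative medians against LF_LF, like the lower chemokines. Of 14 macrophage markers, 7 fell in LF_HF, 1 in VAD_VAD and 4 in BD_HF against LF_LF, with medians of −1.99, −1.22 and −1.80. Trem2, a receptor of lipid-associated macrophages, fell in each, with differences of −3.71, −2.77 and −3.36 (adjusted p = 0.00509, 0.0270 and 0.00948). The mean level of the 14 was 2.19 and 2.11 in LF_LF, 0.62 and 0.80 in VAD_VAD, 0.32 and −0.41 in LF_HF and −0.06 and 0.05 in BD_HF. LF_LF was thus the highest, as it was for Ccl5, Ccl4, Ccl2 and Cx3cr1, and also for Cxcl14, Ccl19 and Cx3cl1. On every array 12 to 14 of the markers were above background. Whether these cells account for any chemokine difference was not tested.

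Of 12 stellate cell and fibroblast markers, 5 fell in LF_HF, 4 in VAD_VAD and 5 in BD_HF, with medians of −1.70, −1.28 and −1.32. With slide as a block, Pdgfrb and Ngfr were lost in VAD_VAD. Collagen Col1a1 differed by −4.67, −3.81 and −4.01 (adjusted p = 0.00472, 0.0168 and 0.00861). The mean level of the list was 2.35 and 2.25 in LF_LF, 0.96 and 0.60 in VAD_VAD, 0.73 and 0.17 in LF_HF and 0.44 and 0.94 in BD_HF. The part of these cells in the chemokine differences was not tested.

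Of 9 Kupffer cell markers, 1 rose in LF_HF, 1 in VAD_VAD and 2 in BD_HF, and 0 fell. Cd163, a scavenger receptor of resident macrophages, was in each count, at 2.49, 3.11 and 2.95 (adjusted p = 0.0430, 0.0440 and 0.0342). With slide as a block it was lost in LF_HF and VAD_VAD (adjusted p = 0.0573 and 0.0692). Of 12 T cell, 8 natural killer cell, 7 B cell and 7 dendritic cell markers tested, 0 passed in the 3 comparisons, with medians between −0.82 and 0.45. Of 7 cholangiocyte markers, Krt19 and Spp1 fell in LF_HF and Krt23 in VAD_VAD, 0 of them with slide as a block, and Spp1 is also among the macrophage markers. The medians of the 7 were −1.65, −1.38 and −1.40 in LF_HF, VAD_VAD and BD_HF. Of 9 tested neutrophil markers, S100a8 rose in VAD_VAD, by 2.52 (adjusted p = 0.0499, and 0.0592 in the blocked fit). Of 10 endothelial, 5 platelet, 4 lymphatic and 5 pancreatic markers tested, 0 passed, and of 11 hepatocyte markers Cyp2e1 rose in BD_HF minus LF_LF.

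**Figure D4:**
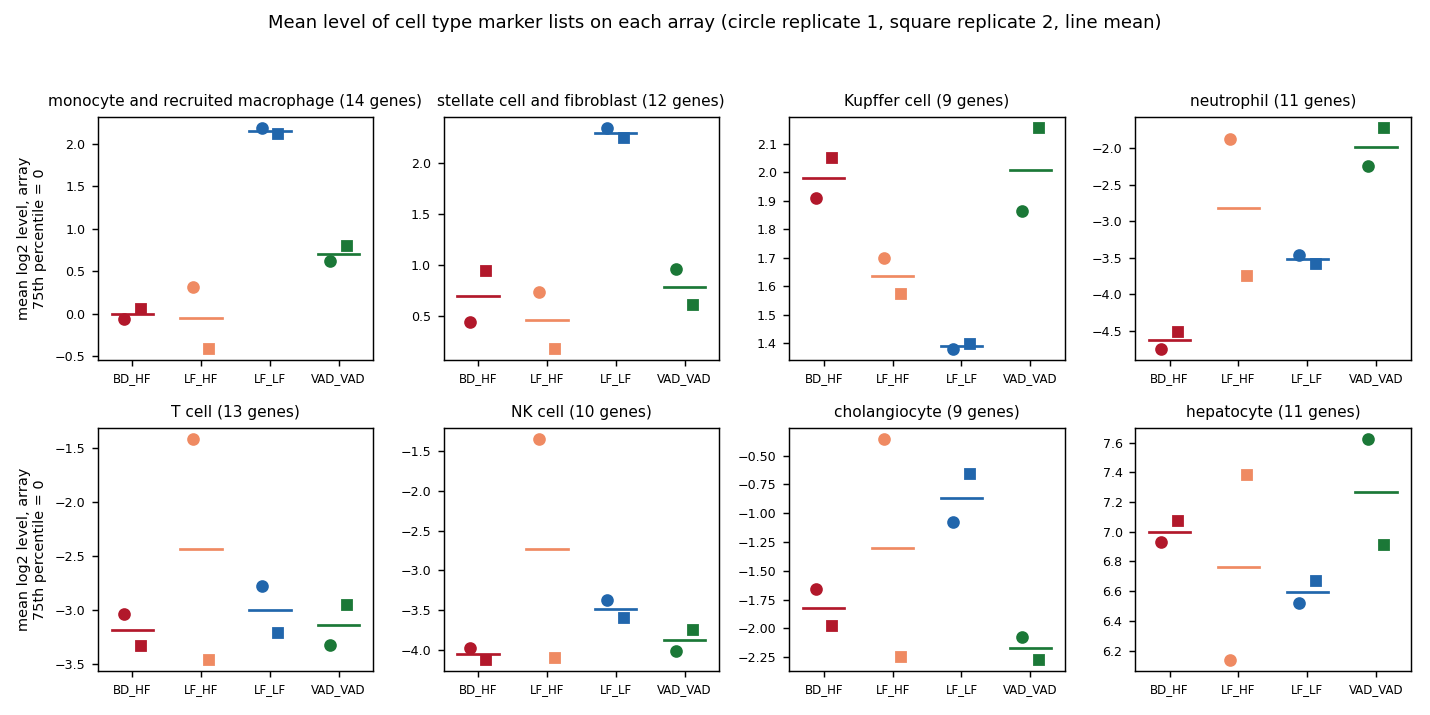
Each panel is a marker list, with the mean log2 level of its genes relative to the array's 75th percentile on the vertical axis and the 4 groups along the horizontal axis, with circles for replicate 1, squares for replicate 2 and lines for the mean. The macrophage list lies at 2.19 and 2.11 and the fibroblast list at 2.35 and 2.25 on the LF_LF arrays, above all other arrays, and the Kupffer cell list is lowest there, at 1.38 and 1.40.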

How the data were processed

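Spot intensities were deposited per array as written by the scanner software, which per the file headers was Feature Extraction 10.7.3.1 from Agilent and handled background and spatial trend within each array, with no scaling between arrays recorded. Each array's flags for a signal well above background, outliers and saturation (other units of the same deposited files) were used, and 0 spots were saturated. The deposited series table held the processed intensities within 0.497% of the scanner values, unscaled and uncentred, with column medians of 23.9, 17.7, 178, 15.7, 27.9, 26.35, 23.7 and 17.9 in the order BD_HF, LF_HF, LF_LF, VAD_VAD, and served as an alternative. The submitters' processing notes also name limma, with no version.

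From these values, log2 intensities minus the array's 75th percentile were computed, control and outlier spots were left out, spots of a probe were averaged, and probes were kept where some group had both of its arrays well above background (26224 of 41174). The probe with the highest mean stood for a gene. A single limma 3.58.1 model in R 4.3.3 was fitted to all 8 arrays, with Benjamini-Hochberg adjustment over 17267 genes. It was tested on simulated data whose spread was taken without LF_HF, so the wider spread of that group was not covered. Figures were drawn with matplotlib 3.10.9. With 2 arrays a group, the number of arrays limits the precision.

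Members named in full were those called in any comparison, the 3 widest non-overlapping differences in each of 3 comparisons, and reference members of liver and leukocyte biology. Ccl21a, Ccl3, Ccl7, Ccl9, Cx3cl1 and the other members given with values were added after their values were seen. The members and all gene lists were chosen with earlier results of these data known.

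Slide 1 held replicate 1 and slide 2 replicate 2 of every group, per the file headers, so the number marks a shared slide and the blocked fit is given where it ends a call. The deviations of same-numbered arrays correlated at 0.0987 to 0.302 between groups. Alternatives covered background correction, scaling, filter, probe choice, outliers, bounds, variance model, block, source of values and each array left out. Of the members, 1 is counted but not reported here by name and is left out of the plots.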

Additional observations from a re-analysis of the deposited data

How the results depend on the processing

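In LF_HF minus LF_LF, 5 members were called. In the alternatives for this comparison that keep all 8 arrays, every member called was lower. The share of all genes that fell is in brackets. The count was 10 with normexp correction (5.92%), 8 with quantile scaling (4.20%) and 8 with trend and robust variances (3.45%). It was 3 with the mean over probes (1.16%), 3 with the replicate block, which is slide as a block (1.27%), and 0 with no filter on dim probes (0.0808%). Leaving out 1 array in turn gave 0 to 17. In VAD_VAD minus LF_LF, 1 was called, against 7 with normexp, 7 with trend and robust variances, 3 with dim values at the bound, 2 with the stricter filter and 0 with no filter, and 0 to 11 with an array left out. Of the 7 called with trend and robust variances in VAD_VAD minus LF_LF, 5 were lower and 2, Cxcl1 and Cxcl13, were higher. With dim values at the bound, 2 were lower there and 1, Cxcl13, was higher. With normexp and with the stricter filter, every member called there was lower. In BD_HF minus LF_LF, 4 were called, all lower. With normexp 9 were lower (2.47% of all genes), with outlier spots kept 2 were lower (0.625%), and with no filter 0 were called. In BD_HF minus LF_HF, 0 were called, and 0 to 13 with an array left out. With no filter, limma still gave 14, 12 and 15 of 53 members at an unadjusted p under 0.05 in the first 3 comparisons and 1 in the last, or 26.4%, 22.6%, 28.3% and 1.89%, beside 16.9%, 5.44%, 6.99% and 4.08% of all genes. Ccl12 in BD_HF minus LF_LF was 0.0211 with normexp, the reversed value. The replicate block ended the calls of Cx3cr1 and Cxcl14 in LF_HF minus LF_LF and Ccl5 in BD_HF minus LF_LF, and no other call of a member. Of 187 values that 10 called differences took under alternatives, 186 kept their direction and 105 were still called. Many of these values could not change direction. Leaving out an array outside a comparison, or changing the variance model, keeps its difference the same. The replicate block and slide as a block were 1 fit counted under 2 names. Over all genes, 431 were called in LF_HF minus LF_LF, against 2662 with normexp, 888 with quantile scaling, 811 with trend and robust variances, 287 with the mean over probes and 32 with no filter. In VAD_VAD minus LF_LF the 109 became 361 with normexp, 299 with trend and robust variances, 67 with the mean over probes, 57 with the replicate block, 53 with outlier spots kept and 0 with no filter. In BD_HF minus LF_LF the 262 became 701, 608 and 163 with the first 3 of these settings, 147 with outlier spots kept and 0 with no filter. The cause was not tested. Signals below background on both arrays of a group limit Ccl12, Ccl3, Cxcr2 and Cxcl13, for which folds are bounds, and Xcl1, for which no fold is given.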
